A study of Homo sapiens with 9 samples.

Results

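The genes described here are 35 human genes of protein folding in the endoplasmic reticulum (ER) and of the unfolded protein response, taken from a fixed list of symbols and matched through the authors' symbol column to Ensembl identifiers in the count files. They are 35 of the 64253 gene identifiers counted. Of these, 34 passed the filter on low counts and belong to the 16561 genes tested. DERL3, the derlin that is mostly expressed in secretory cells, had 3 reads in the 9 libraries together and was not tested.

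The ER is where secreted and membrane proteins enter the secretory pathway through the SEC61 channel, receive their disulfide bonds and sugars, and fold with the help of luminal chaperones. When unfolded protein builds up, the sensors IRE1 (gene ERN1), PERK (gene EIF2AK3) and ATF6 signal to the nucleus, where spliced XBP1, ATF4 and cleaved ATF6 turn on genes for chaperones, lipid synthesis and ER-associated degradation. Fibroblasts secrete large amounts of collagen, which needs prolyl hydroxylases, the collagen chaperone HSP47 (gene SERPINH1) and large transport vesicles to leave the ER.

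RNA was sequenced from IMR90 fibroblasts, which come from human fetal lung and stop dividing after a limited number of passages, in 9 libraries that form 3 groups of 3 lettered a, b and c. All cells were grown at 2% oxygen, infected with lentiviral pLKO.1 vectors in 2 rounds 24 hours apart, and selected in 3 ug/mL puromycin for 7 days at population doubling 30. The control group carried a pLKO.1 vector without a targeting hairpin, which the sample labels call empty and the treatment protocol calls GFP. The shRRM2 group carried 1 hairpin against RRM2, a subunit of the ribonucleotide reductase that makes deoxyribonucleotides, and its label is senescence. The shRRM2/shp16 group carried that hairpin and 1 against p16, a product of CDKN2A that holds cells in G1, and its label is senescence bypass. No group carried the p16 hairpin alone, and each target was hit with a single hairpin sequence. No label says that the replicates came from separate cultures or infections, so p-values measure the spread between these libraries, which may be technical.

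The libraries held 15770895 to 24873291 reads assigned to genes. RRM2 was at 485 ± 5.23 CPM (read counts scaled to a common library size by TMM; mean ± SD, n = 3) under the control vector, 62.1 ± 1.86 CPM in shRRM2 and 177 ± 3.00 CPM with both hairpins. CDKN2A was at 6.02 ± 0.11, 6.50 ± 0.46 and 4.28 ± 0.32 CPM in the same order. The knockdown groups thus differ in RRM2 RNA (log2 fold change 1.51 in shRRM2/shp16 against shRRM2) as well as in the p16 hairpin. For a difference between these groups, the parts of RRM2 level and p16 hairpin cannot be told apart. All 12 fibroblast markers examined were detected and together made up 38461, 41698 and 29821 CPM in control, shRRM2 and shRRM2/shp16. The 5 leukocyte markers summed to 2.15 to 3.27 CPM in a library, with CD3E at 0. The 6 epithelial markers summed to 3.91 to 26.2 CPM, with KRT5 at 0, and the 3 muscle markers to 0.81 to 8.22 CPM, with MYOD1 at 0. The 5 endothelial markers summed to 65.3 to 73.0 CPM in the control and shRRM2 libraries and to 115 to 124 CPM in shRRM2/shp16, and their part in the results was not tested.

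The promoters of ER chaperone genes are known for a shared sequence, the ER stress element (ERSE), which reads CCAAT, 9 free bases and CCACG, and for its short relative ERSE-II, which reads ATTGG, 1 free base and CCACG. RefSeq promoter windows (GRCh38.p14, 250 bases before to 50 after a start site) were given for 29 of the 35 genes. An ERSE on either strand lay in windows of 7 genes (24.1% of those with a window), against 0.0916% of 27305 genes in the whole table. These 7 were HSPA5, HSP90B1, CRELD2, PDIA6, CALR, CANX and XBP1. ERSE-II lay in 3 genes, HYOU1, SDF2L1 and HERPUD1 (10.3%, against 0.0696% of all genes). The core of the unfolded protein response element, TGACGTGG on either strand, was found in HYOU1 alone (3.45%, against 0.927%), where it overlaps an ERSE-II. CCACG by itself, which is part of both longer motifs, lay in 22 genes (75.9%, against 42.1%). Such a match describes letters in the window and is not evidence of binding.

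The following stretches are shown because they hold an ERSE or ERSE-II, read 5′ to 3′ on the strand of the gene. Such a match lay in windows of 10 genes of the list (34.5% of those with a window), which are not all chaperones. Capitals mark the outer bases of each motif. A motif on the opposite strand reads CGTGG before ATTGG for ERSE and CGTGG before CCAAT for ERSE-II.
HSPA5: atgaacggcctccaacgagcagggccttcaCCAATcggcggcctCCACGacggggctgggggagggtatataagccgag
HYOU1: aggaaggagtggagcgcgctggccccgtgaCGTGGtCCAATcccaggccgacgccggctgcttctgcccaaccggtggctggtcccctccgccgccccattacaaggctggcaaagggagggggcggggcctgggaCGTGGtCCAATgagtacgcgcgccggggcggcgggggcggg
SDF2L1: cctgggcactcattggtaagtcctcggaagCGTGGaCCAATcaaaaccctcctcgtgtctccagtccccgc
CRELD2: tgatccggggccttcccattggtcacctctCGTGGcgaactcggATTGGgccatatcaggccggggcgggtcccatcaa
PDIA6: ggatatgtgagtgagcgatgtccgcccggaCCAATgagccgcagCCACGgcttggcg
CALR: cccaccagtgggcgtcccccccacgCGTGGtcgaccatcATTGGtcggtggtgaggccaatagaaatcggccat
XBP1: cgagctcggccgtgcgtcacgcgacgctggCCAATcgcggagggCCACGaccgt
HERPUD1: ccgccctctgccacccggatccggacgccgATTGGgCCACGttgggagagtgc

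On GRCh38 the HSPA5 stretch lies at chr9:125241361-125241439 (minus strand) and the HYOU1 stretch at chr11:119057244-119057420 (minus strand). SDF2L1 is at chr22:21642084-21642154 (plus strand) and CRELD2 at chr22:49918524-49918602 (plus strand). PDIA6 is at chr2:10812845-10812901 (minus strand) and CALR at chr19:12938359-12938432 (plus strand). XBP1 is at chr22:28800598-28800651 (minus strand) and HERPUD1 at chr16:56931995-56932047 (plus strand). Each lies upstream of its RefSeq start site. HYOU1 holds 2 ERSE-II motifs in its stretch, and HSP90B1 has 2 ERSE motifs that lie within annotated exons of other transcripts, as does that of CANX.

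**Figure D1:**
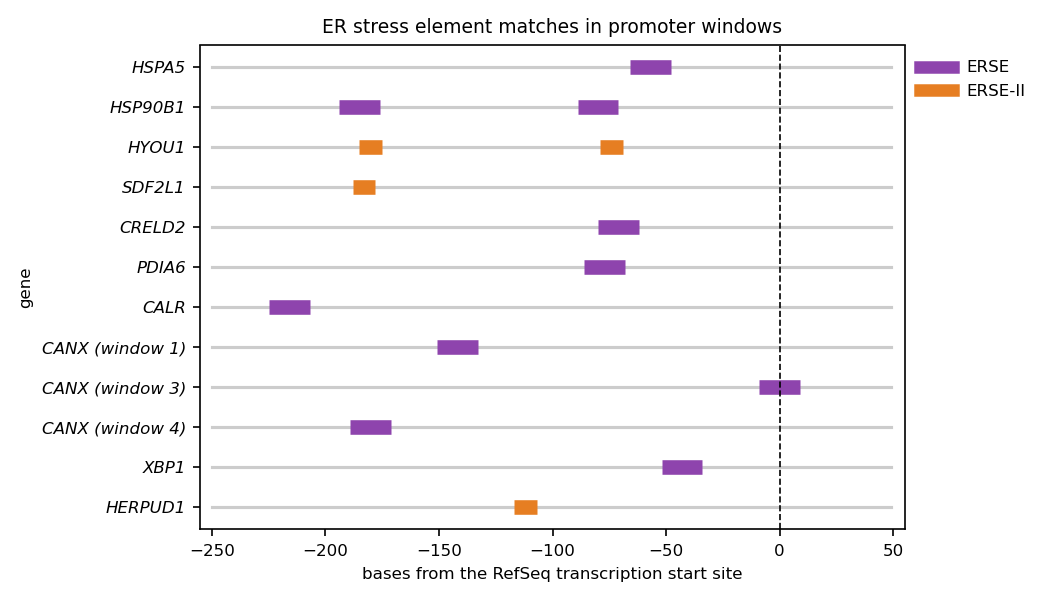
Position of ERSE (purple) and ERSE-II (orange) matches in the RefSeq promoter windows of the 10 genes that hold one, in bases from the transcription start site (dashed line, gene strand); grey lines are the windows searched, and CANX has a match in 3 of its windows. The matches lie upstream of the start site except for that in CANX window 3, which spans it. Windows of CANX overlap, and its windows 1 and 4 hold the same genomic site. In all 3 windows the match has the same spacing to a CCACG on the opposite strand, so that in window 3 is not counted as a further element.

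In shRRM2 against control, 11 rose and 10 fell at an edgeR adjusted p under 0.05, and 13 passed in neither direction. Among all genes tested, 29.0% were called higher and 31.8% lower in that comparison, and the corresponding shares of the list were 32.4% and 29.4%. Their median log2 fold change was -0.02 and the median of its absolute size 0.14, where all genes tested had 0.00 and 0.32. With a threshold of at least 1.5-fold, 2 of the 34 were called (5.88%, DNAJB9 and FKBP14), against 23.3% of all genes. The list is abundant, with a median of 7.51 log2 CPM against 3.97 for all genes tested. These are bulk RNA libraries, in which fewer cells that express a gene and less RNA per cell cannot be told apart.

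In shRRM2/shp16 against shRRM2, 11 genes rose and 16 fell, and 7 passed in neither direction. The background was 31.9% called higher and 29.1% lower, and the list had 32.4% and 47.1%. The median log2 fold change was -0.06 (0.01 over all genes) and the median absolute size 0.19 (0.32 over all genes). At 1.5-fold or more 5 were called (14.7%), against 24.5% of all genes, namely CREB3L1, SEC61A1, FKBP14 and SEC24D lower and DNAJB9 higher. In shRRM2/shp16 against control, 10 rose and 17 fell, against a background of 30.0% and 32.4%, and the list had 29.4% higher and 17 of 34 lower. There the median was -0.06, the median absolute size 0.22 (0.34 over all genes), and 3 genes reached 1.5-fold (8.82%, against 26.7% of all genes), which were CREB3L1, DNAJB9 and ERN1. The 3 comparisons share libraries pairwise and their counts are not independent of each other.

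The split into higher and lower was different in the fits on the authors' RPKM columns, which change the test, the scaling and the unit together and include a column for shRRM2 c that does not match its counts. With limma on log2(RPKM + 0.1), RPKM being reads scaled by gene length and library size, the counts higher and lower were 11 and 6 for shRRM2 against control. They were 10 and 10 for shRRM2/shp16 against shRRM2, and 13 and 10 for shRRM2/shp16 against control. On log2(RPKM + 1) of the 8 columns that match their counts, the numbers were 11 and 9, 14 and 11, and 16 and 12 in the same order. The fit with a pseudocount of 0.1 put the median log2 fold change of all genes at 0.107 in the last comparison, where the count-based fit had 0.01. At least 1 of the fits on RPKM lost the call of DERL2, FKBP10, HSP90B1, MANF and P4HB in shRRM2 against control. Between the knockdown groups the calls lost were those of CALR, DERL1, DERL2, DNAJC3, HERPUD1, HSP90B1, PDIA3, PDIA4 and SYVN1, and in shRRM2/shp16 against control CALR, DERL1, EDEM1, FKBP14, HSP90B1, P4HB, PDIA4 and SDF2L1. In that last comparison DERL1, EDEM1, FKBP14 and P4HB, called lower from the counts, had the opposite sign without a call in the fits on RPKM. No gene called from the counts was called the other way by another setting. CANX, which had no call there, was called lower without the filter on low counts (-0.06) and higher on the 8 RPKM columns that match their counts (0.06).

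**Figure D2:**
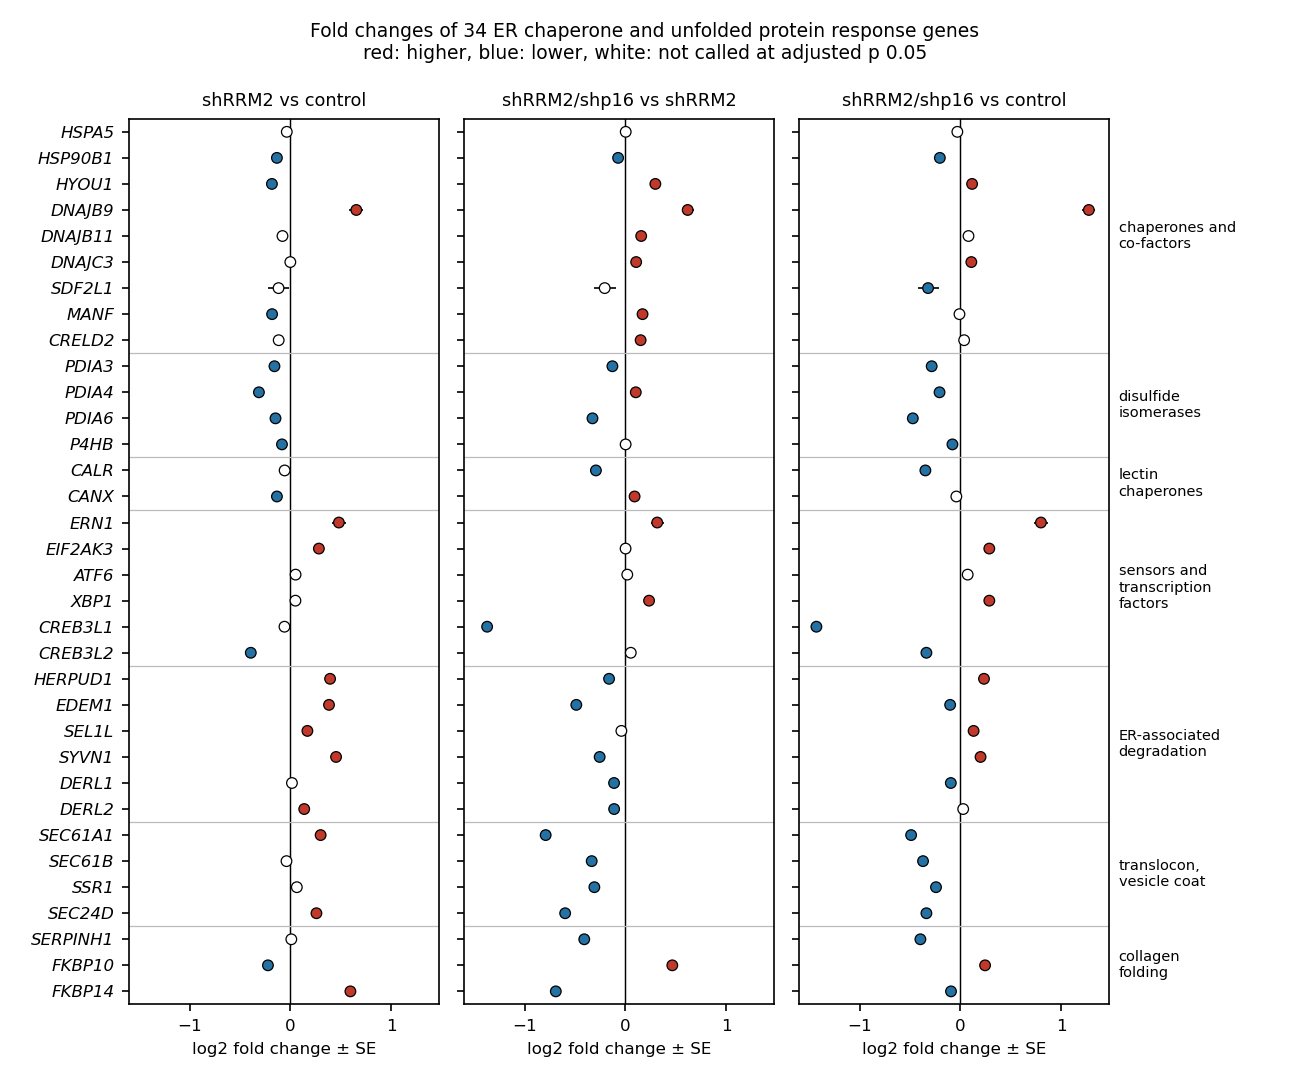
Fitted log2 fold change ± SE (edgeR, 3 libraries per group) of the 34 tested genes in the 3 comparisons, ordered by role; red points were called higher, blue lower and white neither at an adjusted p under 0.05. Most points lie close to 0, and the points farthest out are DNAJB9 at 1.28 and CREB3L1 at -1.43 in shRRM2/shp16 against control.

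Among the luminal chaperones, HSPA5 (ENSG00000044574; chromosome 9, 125234853 to 125241330, minus strand) encodes BiP, the HSP70 of the ER that binds unfolded chains and the stress sensors. It was counted at 780, 728 and 751 CPM in control a, b and c, at 729, 728 and 751 CPM in shRRM2, and at 748, 735 and 730 CPM in shRRM2/shp16. The 3 groups overlapped, with the highest value in control a. Its log2 fold change was -0.03 ± 0.03 (SE) in shRRM2 against control (edgeR adjusted p 0.27) and -0.03 ± 0.03 in shRRM2/shp16 against control (adjusted p 0.33). It was 0.00 ± 0.03 between the knockdown groups (adjusted p 0.91). With limma on log2(RPKM + 0.1), HSPA5 was called higher in shRRM2/shp16 than in shRRM2 at a log2 difference of 0.10, and without the filter on low counts it was called lower in shRRM2 than in control, at -0.07. Its sign in shRRM2/shp16 against control was positive in all 5 fits on RPKM, with a call in 3 of them (0.07 on the 8 matching columns, limma adjusted p 0.029).

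DNAJB9 (ENSG00000128590; chromosome 7, 108569568 to 108574850, plus strand) encodes ERdj4, a J-domain co-chaperone of BiP that represses IRE1 signalling and is a classical target of spliced XBP1. It was at 17.1, 16.2 and 15.8 CPM in the control libraries, 26.2, 26.9 and 24.7 CPM in shRRM2, and 37.8, 38.8 and 42.9 CPM in shRRM2/shp16. No library of one group reached the range of another, and the order was control, shRRM2, shRRM2/shp16. It rose by 0.66 ± 0.07 on the log2 scale in shRRM2 (1.58-fold, edgeR adjusted p 6.9e-11) and by a further 0.62 ± 0.06 in shRRM2/shp16 (1.54-fold, adjusted p 5.8e-12), which made 1.28 ± 0.06 against control (2.42-fold, adjusted p 1.4e-21). Exons of PNPLA8, a phospholipase gene on the opposite strand, overlap DNAJB9, and the strand setting of the authors' counting is not given in the sources used here. PNPLA8 was at 29.8 ± 0.93, 35.1 ± 2.25 and 73.4 ± 3.78 CPM in the same order, and THAP5, which also overlaps, at 20.8 ± 2.43, 23.1 ± 0.43 and 28.0 ± 0.69 CPM. Whether reads of PNPLA8 or THAP5 enter the DNAJB9 counts was not tested.

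The other 7 luminal genes moved less. HSP90B1, which encodes the ER HSP90 GRP94, fell from 972 ± 20.3 CPM in control to 887 ± 30.0 CPM in shRRM2 and to 844 ± 11.1 in shRRM2/shp16. The second step, -0.07 on the log2 scale, did not pass without shRRM2 c (-0.05, edgeR adjusted p 0.14), without shRRM2/shp16 a (-0.06, adjusted p 0.098) or without shRRM2/shp16 b (-0.07, adjusted p 0.065). It had the other sign, without a call, on the 8 RPKM columns that match their counts. The authors' deposited table also has the other sign for this step (377 to 393 FPKM, log2 fold change 0.06, Cuffdiff q 0.82). HYOU1, the large HSP70 that exchanges nucleotide on BiP, fell from 252 ± 11.6 to 223 ± 3.83 CPM in shRRM2 and was at 274 ± 4.01 CPM in shRRM2/shp16, higher than in control and in shRRM2. MANF, a small secreted cofactor that stabilises BiP with its clients, had the same fall in shRRM2 (75.6 ± 3.77 to 66.9 ± 2.28 CPM) and was at 75.3 ± 1.41 CPM in shRRM2/shp16.

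A further 3 co-factors were called higher in shRRM2/shp16 than in shRRM2 and in neither direction in shRRM2 against control. They were DNAJB11 (ERdj3, 96.8 to 108 CPM), DNAJC3 (the PERK inhibitor p58IPK, 110 to 119 CPM) and CRELD2 (34.6 to 38.5 CPM). The call of DNAJC3 was lost without shRRM2 b, shRRM2 c or shRRM2/shp16 c (0.09 to 0.10 on the log2 scale, edgeR adjusted p 0.05 to 0.087). That of CRELD2 was lost without shRRM2 a, shRRM2 c or shRRM2/shp16 b (adjusted p 0.051 to 0.056). SDF2L1, a partner of ERdj3, was at 10.1 ± 1.30, 9.45 ± 0.63 and 8.20 ± 0.84 CPM and passed in shRRM2/shp16 against control alone (log2 fold change -0.32 ± 0.10, edgeR adjusted p 0.0069), but not without control a (-0.19, adjusted p 0.17) or without shRRM2/shp16 b (-0.25, adjusted p 0.066). Over all 9 luminal genes, 1 rose and 3 fell in shRRM2 against control (11.1% and 33.3%, against 29.0% and 31.8% of all genes), and 6 rose and 1 fell in shRRM2/shp16 against shRRM2 (66.7% and 11.1%, against 31.9% and 29.1%). In shRRM2/shp16 against control 3 rose and 2 fell (33.3% and 22.2%, against 30.0% and 32.4%). Across the 21 settings computed, 1 was called higher and 1 to 6 lower in shRRM2 against control. The ranges were 4 to 7 higher and 0 to 1 lower in shRRM2/shp16 against shRRM2, and 2 to 7 and 0 to 2 against control.

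The protein disulfide isomerases form and rearrange disulfide bonds, and all 4 were called lower than control in both knockdown groups. The share of all genes tested that was called lower than control was 31.8% for shRRM2 and 32.4% for shRRM2/shp16. PDIA4 fell from 325 ± 8.81 CPM in control to 262 ± 2.24 CPM in shRRM2, a log2 fold change of -0.31 ± 0.03 (edgeR adjusted p 1.2e-12), and was at 281 ± 2.62 CPM in shRRM2/shp16. PDIA6, which also restrains IRE1, was at 393 ± 15.3, 355 ± 8.38 and 283 ± 1.24 CPM, lower in each step and by -0.47 ± 0.03 on the log2 scale in shRRM2/shp16 against control (adjusted p 2.3e-18). PDIA3, the partner of the lectin chaperones, was at 431 ± 14.3, 387 ± 9.39 and 354 ± 5.10 CPM.

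P4HB is both a disulfide isomerase and the beta subunit of collagen prolyl 4-hydroxylase. It was at 1244 ± 52.4, 1175 ± 18.6 and 1178 ± 23.7 CPM, with log2 fold changes of -0.08 ± 0.03 against control in both knockdown groups (edgeR adjusted p 0.0071 in shRRM2 and 0.009 in shRRM2/shp16). Without control a the log2 fold changes were -0.04 in both, with no call (adjusted p 0.13 and 0.21). The first was also lost without shRRM2 a (adjusted p 0.063), and the second without shRRM2/shp16 b or c (adjusted p 0.077 and 0.091). Across the 21 settings computed, 3 to 4 of the 4 isomerases were called lower in shRRM2 against control and 2 to 4 in shRRM2/shp16 against control, and 0 were called higher. With edgeR as reported, the all-gene shares were 31.8% lower and 29.0% higher for shRRM2, and 32.4% and 30.0% for shRRM2/shp16.

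The lectin chaperones hold glycoproteins through their trimmed sugars. CALR, the luminal member, was at 1789 ± 48.0 CPM in control and 1722 ± 57.8 CPM in shRRM2, which did not pass (edgeR adjusted p 0.054) but did without control b (adjusted p 0.017) or without shRRM2 c (adjusted p 0.0082), and at 1406 ± 8.68 CPM in shRRM2/shp16. It fell by 0.29 ± 0.03 on the log2 scale from shRRM2 to shRRM2/shp16 (adjusted p 1.6e-13), a call that was lost on the authors' RPKM columns as deposited and kept with either pseudocount. CANX, its membrane-bound relative, was at 1015 ± 3.21, 926 ± 31.6 and 987 ± 16.0 CPM, and the edgeR test called it lower in shRRM2 than in either other group. Per base of gene length CALR was the most abundant gene of the list, at 659 RPKM in control, and ERN1 the least abundant of the 34 tested, at 1.65 RPKM.

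**Figure D3:**
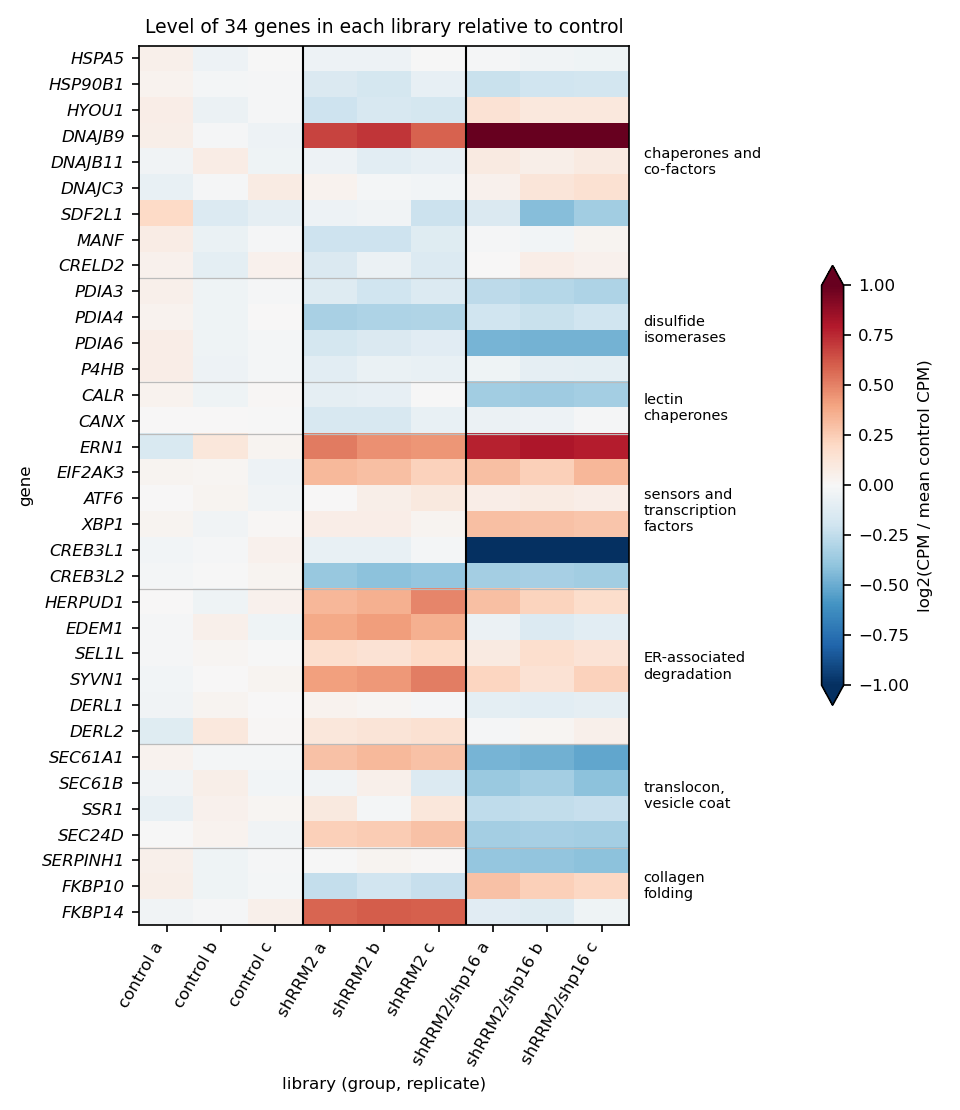
Level of the 34 tested genes in each of the 9 libraries as log2 of CPM over the mean control CPM, ordered by role; the colour scale ends at -1 and 1, and values beyond it, DNAJB9 and CREB3L1 in shRRM2/shp16, have the end colour. Libraries of a group resemble each other, and the translocon and degradation genes are mostly red in shRRM2. In shRRM2/shp16 the translocon genes are blue and the degradation genes pale. Of the latter, HERPUD1, SYVN1 and SEL1L were called higher there than in control, and DERL1 and EDEM1 lower.

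Of the sensors, ERN1 and EIF2AK3 rose in shRRM2 and ATF6 passed in neither direction in any comparison with the settings as reported. ERN1 (ENSG00000178607; chromosome 17, 64039142 to 64130819, minus strand) encodes IRE1, the kinase and endonuclease that splices XBP1. It was at 16.1, 19.4 and 18.3 CPM in control, 25.8, 24.7 and 24.3 CPM in shRRM2, and 30.6, 31.4 and 31.0 CPM in shRRM2/shp16. The 3 groups did not overlap and had the same order as for DNAJB9. ERN1 rose by 0.48 ± 0.07 on the log2 scale in shRRM2 (edgeR adjusted p 9.8e-08), by 0.32 ± 0.06 from shRRM2 to shRRM2/shp16 (adjusted p 3.7e-05) and by 0.80 ± 0.07 against control in shRRM2/shp16 (adjusted p 2.5e-14).

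EIF2AK3 (ENSG00000172071; chromosome 2, 88556741 to 88627576, minus strand) encodes PERK, the kinase that slows translation by phosphorylating eIF2 alpha. It was at 32.5, 32.3 and 30.8 CPM in control, 39.9, 39.3 and 37.4 CPM in shRRM2, and 39.2, 37.5 and 40.2 CPM in shRRM2/shp16. Both knockdown groups lay above control and overlapped each other. The log2 fold changes against control were 0.28 ± 0.05 (edgeR adjusted p 1.7e-05) in shRRM2 and 0.29 ± 0.05 (adjusted p 9.2e-06) in shRRM2/shp16.

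ATF6 (ENSG00000118217; chromosome 1, 161766294 to 161964070, plus strand) encodes the sensor that is cut in the Golgi to release a transcription factor. It was at 73.2, 74.3 and 71.1 CPM in control, 73.2, 75.7 and 77.9 CPM in shRRM2, and 76.5, 77.3 and 76.1 CPM in shRRM2/shp16. The shRRM2/shp16 libraries lay above the control libraries, with a log2 fold change of 0.07 ± 0.04 that did not pass (edgeR adjusted p 0.12). It passed with at least 10 counts required in every library (0.09, adjusted p 0.037) and in all 5 fits on RPKM (0.16 on the 8 matching columns, limma adjusted p 0.0016).

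XBP1 (ENSG00000100219; chromosome 22, 28794555 to 28800597, minus strand) encodes the transcription factor whose RNA is spliced by IRE1, and gene counts do not separate the spliced form. It was at 109, 105 and 108 CPM in control, 112, 113 and 110 CPM in shRRM2, and 132, 131 and 130 CPM in shRRM2/shp16. The shRRM2/shp16 libraries stood above all others, with log2 fold changes of 0.24 ± 0.04 against shRRM2 (edgeR adjusted p 1.5e-07) and 0.29 ± 0.03 against control (adjusted p 1.1e-09). In shRRM2 against control the groups did not overlap either, but the change of 0.05 ± 0.04 did not pass (adjusted p 0.21), and it passed with at least 10 counts required in every library (0.08, adjusted p 0.039) and in the fits on RPKM.

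CREB3L1 (ENSG00000157613; chromosome 11, 46277661 to 46321422, plus strand) encodes OASIS, a membrane-bound transcription factor related to ATF6 that is known for driving collagen and secretory pathway genes in bone and fibroblasts. It was at 337, 340 and 353 CPM in control, 326, 325 and 338 CPM in shRRM2, and 129, 129 and 123 CPM in shRRM2/shp16. Control and shRRM2 overlapped, and all 3 shRRM2/shp16 libraries were far below them. The log2 fold change was -1.37 ± 0.03 in shRRM2/shp16 against shRRM2 (2.59-fold lower, edgeR adjusted p 4.3e-34) and -1.43 ± 0.03 against control (2.69-fold lower, adjusted p 5.7e-35), and -0.06 ± 0.03 in shRRM2 against control (adjusted p 0.086, and a call without control a at -0.07). In the authors' deposited table, CREB3L1 fell from 158 to 59.6 FPKM, a log2 fold change of -1.41.

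CREB3L2, the paralog known for SEC23A control and collagen secretion in cartilage, had another pattern. It fell from 594 ± 9.01 CPM in control to 453 ± 5.05 CPM in shRRM2 (log2 fold change -0.39 ± 0.03, edgeR adjusted p 3.8e-17) and was at 470 ± 3.20 CPM in shRRM2/shp16, with no call between the knockdown groups (adjusted p 0.07, and 0.039 without control a).

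The genes of ER-associated degradation, which pulls misfolded proteins out of the ER for the proteasome, were the role in which most members rose in shRRM2. Of 6 tested, 5 rose and 0 fell in shRRM2 against control, where 29.0% of all genes were called higher and 31.8% lower. Between the knockdown groups 5 fell and 0 rose, where the shares of all genes were 29.1% and 31.9%. Both changes have the shRRM2 libraries in common. Summed over the role, the level was 610 ± 12.1 CPM in control, 730 ± 7.16 in shRRM2 and 630 ± 2.11 in shRRM2/shp16. Across the 21 settings, 4 to 5 genes were called higher in shRRM2 against control and 1 to 5 lower in shRRM2/shp16 against shRRM2.

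SYVN1 (ENSG00000162298; chromosome 11, 65121780 to 65134533, minus strand) encodes HRD1, the ubiquitin ligase of this pathway. It was at 61.9, 63.1 and 64.3 CPM in control, 83.9, 85.3 and 89.9 CPM in shRRM2, and 73.4, 69.8 and 74.1 CPM in shRRM2/shp16. The groups did not overlap, with shRRM2 highest and shRRM2/shp16 between. It rose by 0.45 ± 0.04 on the log2 scale in shRRM2 (edgeR adjusted p 1.4e-12) and fell by 0.25 ± 0.04 from there in shRRM2/shp16 (adjusted p 1e-06), of which the second was lost in the fits on RPKM that include shRRM2 c. Exons of FAU on the same strand and MRPL49 on the other overlap SYVN1, and these were at 191, 159 and 166 CPM and at 46.8, 41.7 and 46.6 CPM in the group order. Whether their reads enter the SYVN1 counts was not tested.

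EDEM1, a lectin that extracts mannose-trimmed glycoproteins, rose from 162 ± 5.47 CPM in control to 211 ± 5.10 CPM in shRRM2 (log2 fold change 0.38 ± 0.03, edgeR adjusted p 1.4e-13) and was at 151 ± 4.11 CPM in shRRM2/shp16. Its level there was called lower than in control (-0.10 on the log2 scale, adjusted p 0.0082), but not without control b or without shRRM2/shp16 b (both -0.07, adjusted p 0.1). HERPUD1, a stress-induced scaffold of the HRD1 complex, was at 58.5 ± 1.80, 76.8 ± 4.62 and 68.8 ± 3.10 CPM, higher than control in both knockdown groups. SEL1L, the HRD1 adaptor, was at 179 ± 2.11, 201 ± 3.80 and 196 ± 5.23 CPM, also higher than control in both.

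The derlins are rhomboid-like proteins of the export channel. DERL2 was at 59.2 ± 4.65, 64.9 ± 0.92 and 60.1 ± 1.38 CPM. Its rise in shRRM2 (0.14 on the log2 scale, edgeR adjusted p 0.012) was lost without control a (0.08, adjusted p 0.19). Its fall from shRRM2 to shRRM2/shp16 (-0.11, adjusted p 0.042) was lost without control c and without any 1 of the 6 knockdown libraries (adjusted p 0.052 to 0.15). DERL1 was at 88.2 ± 2.04, 89.2 ± 1.39 and 82.5 ± 0.41 CPM and was called lower in shRRM2/shp16 than in both other groups. The call against shRRM2 was lost without shRRM2/shp16 b (adjusted p 0.052), and that against control without control b, control c or any 1 shRRM2/shp16 library (adjusted p 0.054 to 0.14). The gene MIS12 overlaps DERL2 on the opposite strand and was at 21.1, 12.8 and 18.3 CPM in the group order.

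The translocon and vesicle coat genes had the lowest medians of any role in shRRM2/shp16. All 4 fell in shRRM2/shp16 against shRRM2 (median -0.47 on the log2 scale) and against control (median -0.35), in all 21 settings computed. Among all genes tested, 29.1% were called lower in shRRM2/shp16 against shRRM2 and 32.4% in shRRM2/shp16 against control. In shRRM2 against control 2 of the 4 rose and 0 fell, where 29.0% of all genes were called higher and 31.8% lower. Their summed level was 1297 ± 9.67 CPM in control, 1514 ± 3.91 in shRRM2 and 986 ± 9.10 in shRRM2/shp16.

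SEC61A1 (ENSG00000058262; chromosome 3, 128051641 to 128071683, plus strand) encodes the pore of the protein-conducting channel. It was at 703, 673 and 676 CPM in control, 838, 857 and 836 CPM in shRRM2, and 496, 490 and 477 CPM in shRRM2/shp16. The 3 groups did not overlap, with shRRM2 highest and shRRM2/shp16 lowest. SEC61A1 rose by 0.30 ± 0.03 on the log2 scale in shRRM2 (edgeR adjusted p 1.4e-13) and fell by 0.79 ± 0.03 from there in shRRM2/shp16 (1.73-fold lower, adjusted p 4.5e-28), to a log2 fold change of -0.49 ± 0.03 against control (adjusted p 1.5e-20). RUVBL1, which overlaps it on the opposite strand, was at 50.6, 31.5 and 39.5 CPM in the group order.

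SEC24D, the cargo-binding coat subunit of COPII vesicles that is needed for collagen export, had the same order at 238 ± 5.66, 285 ± 5.80 and 188 ± 0.25 CPM. It fell by 0.60 ± 0.03 on the log2 scale from shRRM2 to shRRM2/shp16 (edgeR adjusted p 1.8e-21). SEC61B, a small channel subunit, was at 85.5 ± 3.16, 83.3 ± 5.42 and 66.0 ± 1.71 CPM. SSR1, a subunit of the translocon-associated complex, was at 290 ± 12.3, 303 ± 14.3 and 245 ± 2.36 CPM, and neither it nor SEC61B passed in shRRM2 against control, though SSR1 did without control b (adjusted p 0.023) or without shRRM2 b (adjusted p 0.0054).

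The 3 collagen folding genes each went their own way. FKBP14 (ENSG00000106080; chromosome 7, 30010587 to 30026684, minus strand) encodes a prolyl isomerase of the ER that acts on procollagen. It was at 74.8, 75.9 and 79.4 CPM in control, 115, 116 and 116 CPM in shRRM2, and 71.0, 70.1 and 74.4 CPM in shRRM2/shp16. The shRRM2 libraries stood above all 6 others. FKBP14 rose by 0.60 ± 0.04 on the log2 scale in shRRM2 (1.51-fold, edgeR adjusted p 1.7e-17) and fell by 0.69 ± 0.04 from there in shRRM2/shp16 (1.61-fold, adjusted p 1.1e-19). The remaining difference of shRRM2/shp16 from control, -0.09 ± 0.04 (adjusted p 0.043), was lost without any 1 library other than control a and shRRM2/shp16 c (adjusted p 0.058 to 0.23).

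FKBP10, the FKBP65 isomerase needed for collagen cross-linking, had the opposite order at 348 ± 12.8 CPM in control, 299 ± 5.04 in shRRM2 and 413 ± 13.2 in shRRM2/shp16. Its log2 fold changes were -0.22 ± 0.03 (edgeR adjusted p 2.9e-08) and then 0.47 ± 0.03 (adjusted p 1e-17). SERPINH1, the collagen chaperone HSP47, was at 584 ± 20.1 CPM in control and 588 ± 6.98 CPM in shRRM2, which overlapped, and at 443 ± 4.38 CPM in shRRM2/shp16 (log2 fold change against shRRM2 -0.41 ± 0.03, adjusted p 3.5e-17).

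**Figure D4:**
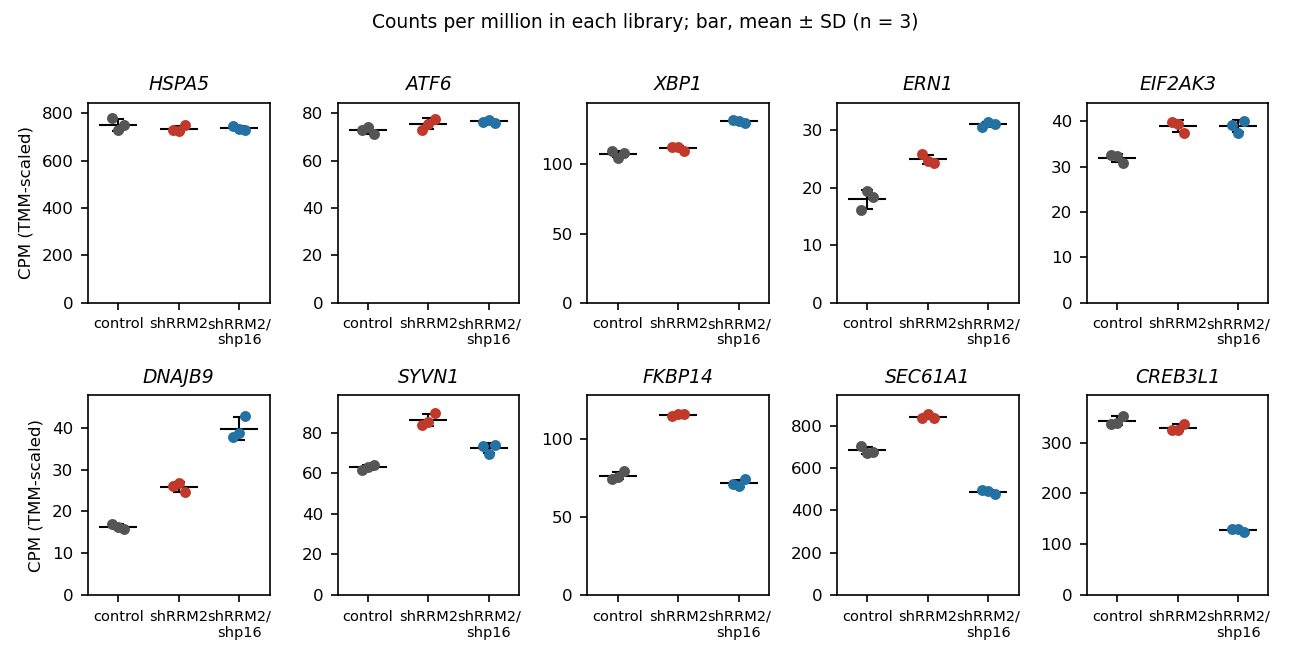
CPM of 10 genes in each of the 9 libraries, with a bar at the mean ± SD of 3 libraries per group; every vertical axis starts at 0. HSPA5 and ATF6 are nearly level, ERN1 and DNAJB9 step up from group to group, SYVN1, FKBP14 and SEC61A1 are highest in shRRM2, and CREB3L1 is low in shRRM2/shp16 at 123 to 129 CPM.

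Summed over all 35 genes the level was 11608 ± 205 CPM in control, 11295 ± 168 in shRRM2 and 10154 ± 43.6 in shRRM2/shp16. The shRRM2/shp16 libraries, at 10121 to 10203 CPM, lay below the other 6, at 11175 to 11827 CPM. CALR, P4HB, CANX, HSP90B1 and HSPA5 hold much of this sum, but not all of them fell with it. From shRRM2 to shRRM2/shp16, CALR went from 1722 to 1406 CPM and HSP90B1 from 887 to 844 CPM. In that step HSPA5 and P4HB had no call and CANX rose. SEC61A1 went from 843 to 487 CPM and CREB3L1 from 330 to 127 CPM. Of the 10 genes with an ERSE or ERSE-II, 1 rose and 4 fell in shRRM2 against control, 4 rose and 4 fell in shRRM2/shp16 against shRRM2, and 3 rose and 4 fell in shRRM2/shp16 against control. Of the 24 other tested genes, which include those without a window, 10 rose and 6 fell, 7 rose and 12 fell, and 7 rose and 13 fell in the same order. Of all genes tested, 29.0% rose and 31.8% fell in the first comparison, 31.9% and 29.1% in the second, and 30.0% and 32.4% in the third.

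The authors' deposited table compares shRRM2/shp16 with shRRM2 by Cuffdiff. It marks 10 of the 35 genes as significant, 2 higher (DNAJB9 and FKBP10) and 8 lower (PDIA6, CALR, CREB3L1, SEC61A1, SEC61B, SEC24D, SERPINH1 and FKBP14). The share of all genes that the authors mark is not given here, so these counts have no background beside them. All 10 were called from the counts with the same sign, and 30 of the 34 tested genes had the same sign in both. The 4 with the other sign were HSP90B1, EIF2AK3, ATF6 and DERL1. Of these, HSP90B1 and DERL1 were called lower from the counts. For ERN1 the authors' deposited table has a log2 difference of 0.07 (q 0.903), where the counts gave 0.32.

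Other genes of these pathways were described from lists that overlap with none of the 35. Their counts stand beside the same background, with 29.0% of all genes called higher and 31.8% lower in shRRM2 against control, and 31.9% and 29.1% between the knockdown groups. The PERK-ATF4 arm, which handles amino acid supply and redox balance and includes the pro-apoptotic factor CHOP, had 7 higher and 8 lower of 17 genes in shRRM2 against control (41.2% and 47.1%), and their median was 0.00 on the log2 scale. In shRRM2/shp16 against shRRM2, 13 were higher and 4 lower (76.5% and 23.5%, median 0.32, against 0.01 over all genes tested), and 13 were higher in each of the 21 settings. The edgeR test called CHAC1, a glutathione-degrading enzyme, 1.15 ± 0.06 higher on the log2 scale in shRRM2 than in control (33.1 to 73.4 CPM), and 0.62 lower than that in shRRM2/shp16. ASNS, the asparagine synthetase, fell by 1.02 ± 0.10 in shRRM2. CEBPB, a transcription factor that is not limited to this arm, rose from 97.3 to 321 CPM between shRRM2 and shRRM2/shp16.

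Of 32 other ER folding enzymes, 13 rose and 8 fell in shRRM2 against control (40.6% higher against 29.0% of all genes, median 0.09), and 14 rose and 11 fell in shRRM2/shp16 against shRRM2 (43.8% and 34.4%, against 31.9% and 29.1%, median 0.08). UGGT1, the glucosyltransferase that senses misfolded glycoproteins, fell from 245 to 173 CPM in shRRM2, and MOGS, the first glucosidase of the cycle, rose from 62.5 to 98.4 CPM. The oxidase QSOX1 rose from 697 to 1154 CPM between shRRM2 and shRRM2/shp16. Of 24 other degradation genes tested, 13 rose and 5 fell in shRRM2 against control (54.2% and 20.8%, median 0.12), and 5 rose and 10 fell in shRRM2/shp16 against shRRM2 (20.8% and 41.7%, median 0.00). ERLEC1, a lectin of the HRD1 complex, rose from 78.0 to 124 CPM in shRRM2, and the ubiquitin-conjugating enzyme UBE2J1 fell from 117 to 72.1 CPM between shRRM2 and shRRM2/shp16.

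Of 32 other translocon and COPII genes tested, 15 rose and 6 fell in shRRM2 against control (46.9% and 18.8%, against 29.0% and 31.8% of all genes, median 0.10). In the step to shRRM2/shp16, 3 rose and 21 fell (9.38% and 65.6%, against 31.9% and 29.1%, median -0.26), and 5 rose and 17 fell in shRRM2/shp16 against control (15.6% and 53.1%, against 30.0% and 32.4%, median -0.10). Between shRRM2 and shRRM2/shp16, SSR3 fell from 477 to 217 CPM and TRAM2, a translocon protein linked to collagen I synthesis, from 454 to 205 CPM, while SSR4 rose from 69.4 to 99.8 CPM. Their summed level was 6067 ± 69.7 CPM in control, 6754 ± 26.6 in shRRM2 and 5028 ± 30.7 in shRRM2/shp16.

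Of 19 collagen-modifying enzymes, 12 rose and 2 fell in shRRM2 against control (63.2% and 10.5%, against 29.0% and 31.8% of all genes, median 0.12). From shRRM2 to shRRM2/shp16, 4 rose and 13 fell (21.1% and 68.4%, against 31.9% and 29.1%, median -0.28). The prolyl 3-hydroxylase P3H2 rose from 60.6 to 161 CPM in shRRM2 and was at 52.3 CPM in shRRM2/shp16, and PCOLCE, the enhancer of procollagen cleavage, went from 206 to 83.4 and to 205 CPM. The 18 collagen genes themselves rose and fell in equal number in shRRM2 (8 each, 44.4%), and 12 rose and 5 fell in shRRM2/shp16 against shRRM2 (66.7% and 27.8%). COL11A1 was at 66.3, 159 and 20.1 CPM in the group order and COL14A1 at 60.2, 7.04 and 64.4 CPM.

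**Figure D5:**
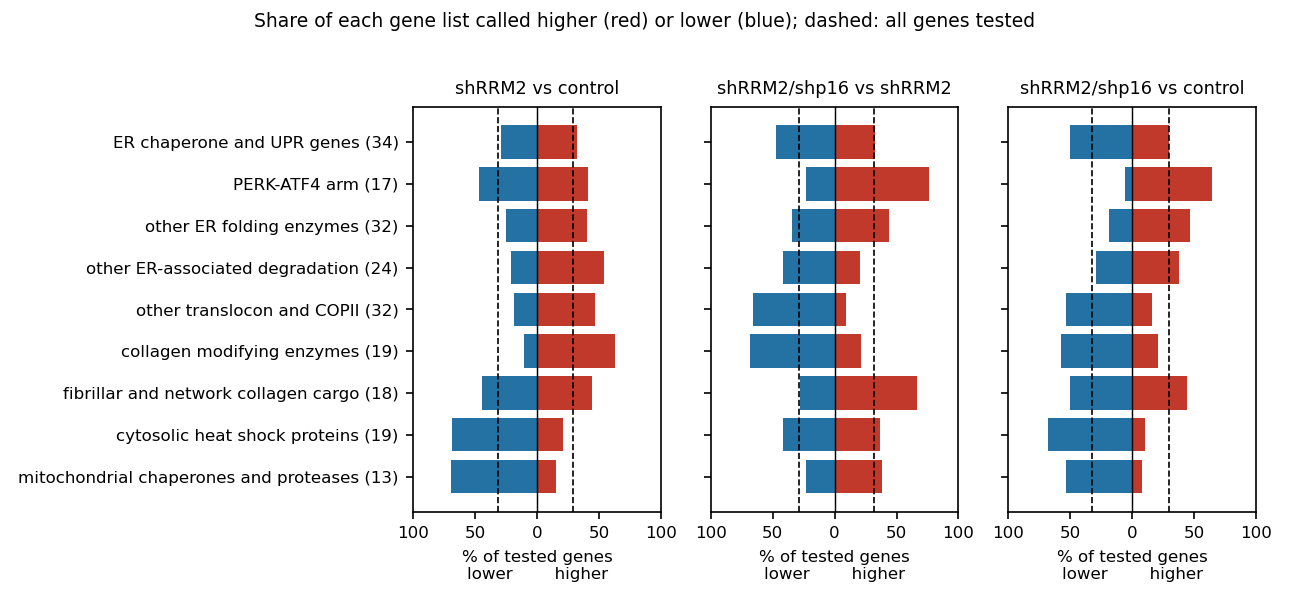
Share of tested genes called higher (red, to the right) or lower (blue, to the left) by edgeR in the 35-gene list (34 tested) and in 8 other lists, in each comparison, with dashed lines at the shares over all 16561 genes tested. The translocon and COPII list and the collagen-modifying enzymes reach 65.6% and 68.4% lower in shRRM2/shp16 against shRRM2, and the PERK-ATF4 arm 76.5% higher.

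Of 9 other membrane-bound stress transcription factors and their proteases, 5 were tested. CREB3L4, a relative of CREB3L1, was the 1 gene of them past 1.5-fold, lower in shRRM2 than in control (-0.85 on the log2 scale) and higher with both hairpins than with the RRM2 hairpin alone (0.88). It lies under the level set for naming genes of other lists (2 log2 CPM) and is named here after its values were seen. CREB3 was at 81.3, 90.0 and 68.1 CPM in the group order and was called in each comparison. MBTPS1, the protease that cuts ATF6 and the CREB3 family first, was at 136 CPM in control, 168 in shRRM2 and 149 in shRRM2/shp16, and MBTPS2, which cuts them second, was at 41.6, 40.3 and 45.7 CPM.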

How the data were processed

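The 35 genes and all other lists were chosen with earlier results of these data known, so no pattern here is independent support for those results. Per the labels' protocols, ribosomal RNA was depleted from total RNA and the library kit keeps strand. The submitters' processing notes name TopHat2 2.0.9, Cufflinks 2.0.2, Cuffdiff and GRCh38. The authors deposited for each library a raw count of reads per Ensembl gene in the layout of HTSeq, whose strand setting is not given in the sources used here. Reads in no gene made up 17.6% to 28.8% and ambiguous reads 3.74% to 6.02% of uniquely aligned reads, and both stayed out of the library sizes. The share of reads in no gene differed by group without overlap. It was 17.6% to 18.9% in control, 27.7% to 28.8% in shRRM2 and 23.5% to 24.4% in shRRM2/shp16. Its part in the results was not tested. Entries that were not unique made up 40.3% to 44.9%. The authors also deposited log2 RPKM columns, found from the counts to be on a scale of log2(RPKM/1000 + 1), and, per the file headers, mean FPKM, log2 fold change, a test statistic (a score, not used), p-value and q-value of their Cuffdiff comparison of the knockdown groups. Of the log2 RPKM columns 8 match the counts (at least 99.0% of genes within 1%) and that of shRRM2 c does not (4.87%). There were 0 columns without a sample.

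The test was that of edgeR 4.0.16 under R 4.3.3 (TMM, filterByExpr by group, glmQLFit, glmQLFTest, two-sided, Benjamini-Hochberg over 16561 genes, threshold 0.05) in 1 fit of all 9 libraries with 6 residual degrees of freedom. SE came from the F statistic. CPM is TMM-scaled, and levels per length use the gene length implied by the authors' RPKM. Values of each library are given for HSPA5, XBP1, ATF6, ERN1, EIF2AK3 and the 4 genes with the largest change in each comparison, and other lists by at most 2 genes called highest and lowest among those with a mean of at least 2 log2 CPM. Counting error alone understates the error, since reads carry no molecular identifiers. Gene positions and overlaps are from GENCODE 29 on GRCh38 and promoters from RefSeq. The script was tested on simulated counts with known fold changes. Alternatives were RLE size factors, DESeq2 1.42.0, other count filters, the 6 libraries compared alone, a replicate block, each library left out, and limma 3.58.1 on log2 RPKM with pseudocounts 0.1 and 1. The rescaled RPKM fits with pseudocount 1 and the 1.5-fold threshold were chosen after seeing the data.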

Additional observations from a re-analysis of the deposited data

How the results depend on the processing

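No gene called by edgeR as reported was called in the opposite direction by another setting. In shRRM2 against control, the median log2 fold change of the 34 genes was -0.075 without a count filter, 0.015 with at least 10 counts in every library, 0.043 with limma on log2(RPKM + 0.1), 0.042 on log2(RPKM + 1), and 0.053 on the 8 matching RPKM columns. The number lower was 6 in the 4 limma fits on all 9 columns, and 1 gene reached 1.5-fold without a filter and on log2(RPKM + 1). In shRRM2/shp16 against shRRM2, the median was -0.022 without a filter, -4.325e-05 on RPKM as deposited with and without a minimum mean RPKM of 1, -0.00090 with a pseudocount of 0.1, -0.0011 with 1, and 0.021 on 8 columns, a change of sign. The number lower was 9 as deposited and 10 with either pseudocount, and 3 genes reached 1.5-fold on log2(RPKM + 1). In shRRM2/shp16 against control, the median was -0.10 without a filter, -0.038 with at least 10 counts, and of the other sign at 0.0011 as deposited and 0.044 with either pseudocount and on 8 columns. The number lower was 10 (11 with the minimum RPKM), and the number higher 16 on 8 columns. The cause was not tested. The as-deposited scale shrinks differences, so the 1.5-fold threshold was not applied to it.

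With 1 library left out, the median ranged from -0.024 to 0.017, -0.072 to -0.035 and -0.061 to -0.035 in the 3 comparisons in that order. The number higher ranged from 10 to 12, 9 to 12 and 9 to 11, and the number lower from 9 to 12, 13 to 16 and 12 to 16. The 1.5-fold count ranged from 1 to 2 (1 without control a), 3 to 5 (3 without shRRM2 c) and was 3 throughout. With the replicate letter as a block, 11 rose and 11 fell, 11 rose and 16 fell, and 10 rose and 17 fell, with medians of -0.02, -0.06 and -0.06. The letters do not pair the libraries: deviations of same-letter libraries correlated at -0.02 to 0.049, other letters at -0.048 to 0.036, and 3 of 9 libraries were closest to their own letter.

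In count-based fits of all libraries, calls were lost for DERL2 and P4HB (shRRM2 against control), CRELD2, DERL1, DERL2, DNAJC3 and HSP90B1 (shRRM2/shp16 against shRRM2), and DERL1, DNAJC3, FKBP14 and P4HB (shRRM2/shp16 against control). Calls were gained for CALR, CREB3L1, CRELD2, DNAJB11, HSPA5, SSR1 and XBP1, for CREB3L2, and for ATF6, CANX and DNAJB11 in the same order, and the number lower in shRRM2 against control was 15 without a filter. The filter on low counts kept DERL3 (3 reads) out of the test, and the SE of the 34 log2 fold changes ranged from 0.025 (CALR) to 0.11 (SDF2L1).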

Other observations

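The list of cytosolic heat shock genes has 21 genes, of which HSPA1A and HSPA1B did not pass the filter on low counts and were not tested. Reads that did not align uniquely are not in the gene counts, so this does not show that HSPA1A and HSPA1B were not expressed. Of 19 cytosolic heat shock genes tested, 4 rose and 13 fell in shRRM2 against control by edgeR (21.1% and 68.4%, against 29.0% and 31.8% of all genes), with a median log2 fold change of -0.28 (0.00 over all genes tested), and 11 to 15 were called lower across the 21 settings. Between the knockdown groups 7 rose and 8 fell (36.8% and 42.1%, against 31.9% and 29.1%, median 0.02). In shRRM2/shp16 against control 2 rose and 13 fell (10.5% and 68.4%, against 30.0% and 32.4%, median -0.46). The summed level of all 21 genes was 6684 ± 106 CPM in control, 5010 ± 98.0 in shRRM2 and 4827 ± 5.91 in shRRM2/shp16, without overlap of control with either knockdown group. HSP90AA1, the inducible cytosolic HSP90, fell from 1328 to 860 CPM in shRRM2, and its co-chaperone FKBP4 from 103 to 50.4 CPM. The small heat shock genes HSPB8 and CRYAB fell from 36.0 to 12.0 CPM and from 39.6 to 14.2 CPM between shRRM2 and shRRM2/shp16, while DNAJA1 rose from 210 to 355 CPM.

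Of 13 mitochondrial chaperone and protease genes, 2 rose and 9 fell in shRRM2 against control (15.4% and 69.2%, against 29.0% and 31.8% of all genes, median -0.18). The step to shRRM2/shp16 had 5 higher and 3 lower (38.5% and 23.1%, against 31.9% and 29.1%, median 0.06), and 1 rose and 7 fell in shRRM2/shp16 against control (7.69% and 53.8%, against 30.0% and 32.4%, median -0.20). The chaperonin pair HSPD1 and HSPE1 fell from 340 to 204 CPM and from 44.1 to 26.6 CPM in shRRM2, and were at 230 and 30.5 CPM in shRRM2/shp16. The difference between these lists and the ER genes was not tested.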
